A study of Mus musculus with 4 samples.

Results

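The genes described here are the ligands, receptors and Smad proteins of the transforming growth factor beta (TGF-beta) and bone morphogenetic protein (BMP) pathways in mouse sciatic nerve. They were taken by symbol: a name beginning with Tgfb, Bmpr, Inhb or Acvr, with Bmp, Gdf, Smad or Ltbp and a digit, or the name Inha. The rule found 58 of the 50593 genes of the table, and 53 of them encode ligands, latent ligand-binding proteins, receptors or Smads of the superfamily. The other 5 (Bmp1, Bmp2k, Tgfbi, Tgfb1i1 and Tgfbrap1) match by name and have other functions.

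The groups were HSF V30M and HSF WT, all mice of a 129 strain (129S1/SvImJ by label) aged 6 months, with 2 labelled samples each; the methods give n = 4 without saying whether this is per group. The mice of both groups are heterozygous for a deletion of Hsf1, the gene of a heat shock transcription factor, so the comparison holds no mice with intact Hsf1. HSF V30M mice also carry a transgene for human transthyretin (TTR) with the V30M substitution, the amyloid-forming variant of a hereditary neuropathy, and lack endogenous Ttr. HSF WT mice carry no transgene. The 2 groups therefore differ in the transgene and in the endogenous gene together. Whole nerve was used, so fewer cells of a type and less RNA per cell cannot be told apart.

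Ligands of this superfamily are secreted dimers. They bring together type I and type II serine/threonine kinase receptors, and the type I receptor then phosphorylates Smad proteins that enter the nucleus with Smad4. TGF-beta and activin ligands act mainly through Smad2 and Smad3, and BMP ligands through Smad1, Smad5 and Smad9, while Smad6 and Smad7 inhibit the pathway. TGF-beta is stored in the matrix in a latent complex with LTBP proteins. In peripheral nerve the pathway is known for its part in Schwann cell development, in the response to injury and in the matrix made by fibroblasts.

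The measurement is FPKM, the fragments of RNA sequence per kilobase of transcript and scaled to the fragments sequenced, and the table holds 1 value per gene and group, estimated over the libraries of the group. There are no values per mouse, so no spread between mice, test or p-value is given for any difference below. The ratio of HSF V30M to HSF WT is given instead with a 95% counting interval, which was derived from the number of fragments that the FPKM stands for on the shortest coding transcript. It covers counting error only. A gene is called past the fold when (FPKM + 1) differs by more than 1.5-fold, and log2 differences below are on that FPKM + 1 scale, where the change of a low gene comes out too small. Only genes with a mean of at least 1 FPKM were counted.

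Mouse Ttr was 6.10 FPKM in the group labelled HSF V30M, which is described as lacking the gene. It was at 0 in the HSF WT column, where 3 fragments would be 0.197 FPKM. The value in HSF V30M goes against that description, so the groups are named here as labelled, and each direction below rests on those labels. Whether fragments of the human transgene were assigned to mouse Ttr was not tested. Hsf1 had 7.94 FPKM in HSF V30M against 15.0 in HSF WT, although both groups are described as heterozygous for its deletion. The cause of this difference was not tested. The nerve itself was evident in both groups, since the 7 markers of myelinating Schwann cells summed to 12332 and 10865 FPKM and none was past 1.5-fold.

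Of the 58 genes, 46 had a mean of at least 1 FPKM and 22 a mean of at least 10. Among the 46, 7 were past 1.5-fold higher in the group labelled HSF V30M: Bmp5, Gdf1, Gdf9, Inha, Acvr2b, Acvr1c and Smad7. Another 3 were past it lower: Tgfbr1, Ltbp2 and Smad6. These are 15.2% higher and 6.52% lower, beside 8.22% and 8.44% of all 15620 genes with that mean. When the counting interval also had to lie off 1, 6 were higher and 1, Tgfbr1, was lower, beside 5.14% and 5.17% of all genes. The median log2 difference of the 46 was 0.08, and that of all genes was 0.00. In sign alone 25 were higher and 21 lower. The genes past the fold were mostly low: Tgfbr1 was the single one of them above 10 FPKM in either group.

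**Figure D1:**
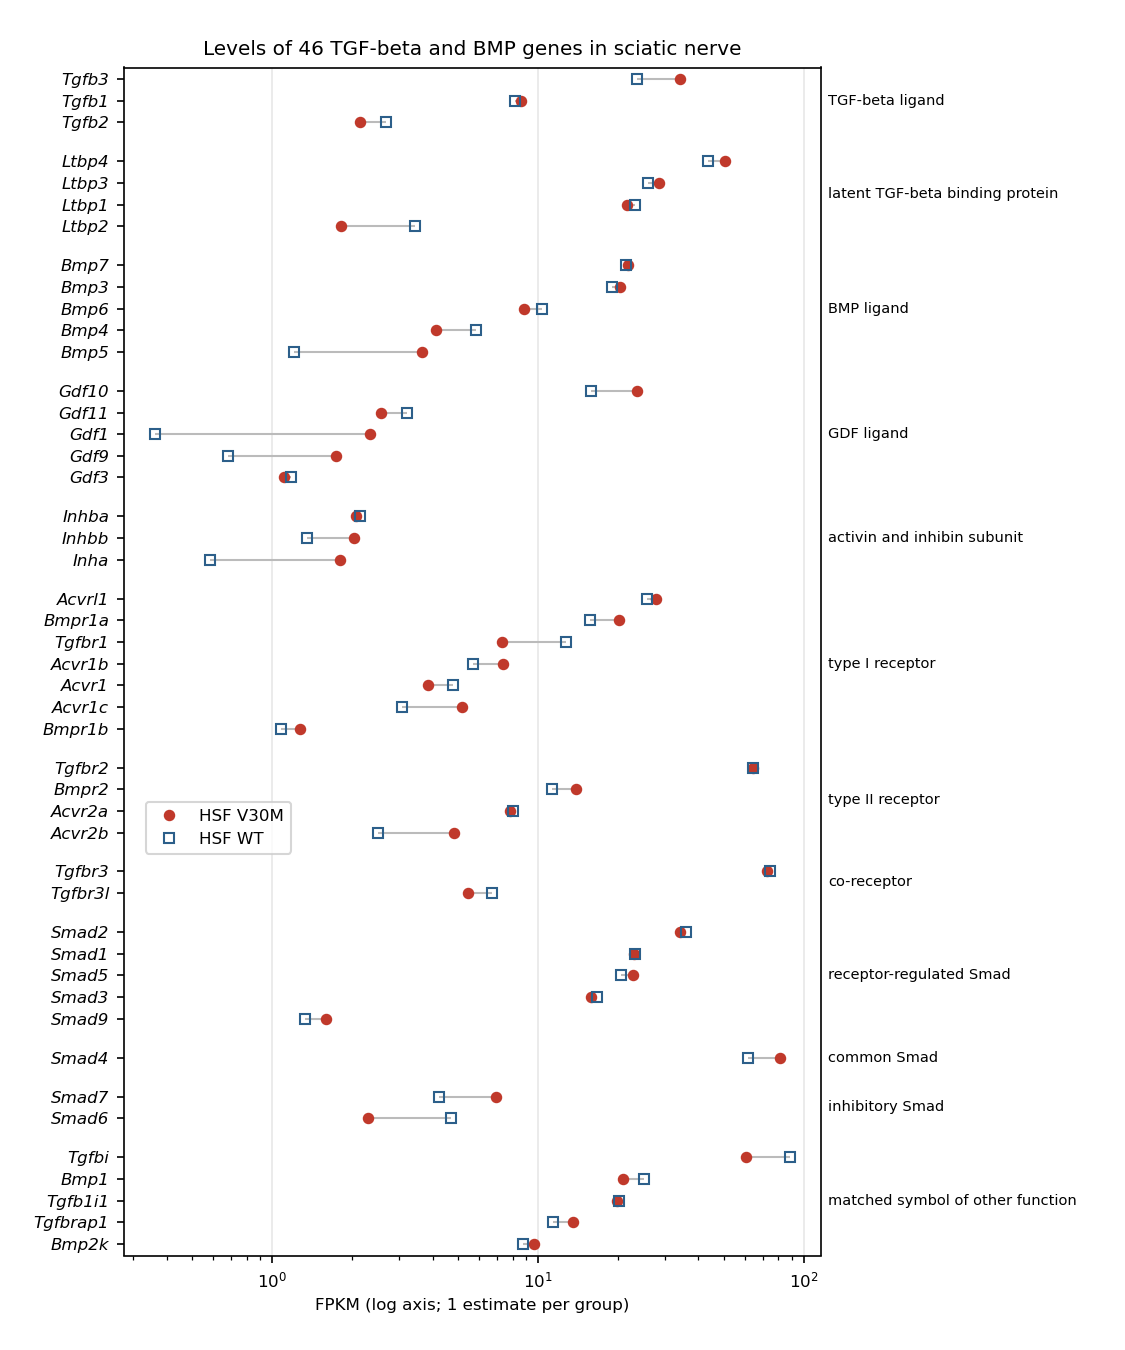
FPKM of the 46 genes with a mean of at least 1, grouped by role, on a log axis; filled circles are HSF V30M, open squares HSF WT, and each symbol is 1 estimate per group. Tgfbr2, Tgfbr3, Smad4 and Tgfbi lie highest in both groups, from 60.5 to 88.1 FPKM, while the widest gaps (Gdf1, Bmp5, Inha and Gdf9) are among genes under 4 FPKM.

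**Figure D2:**
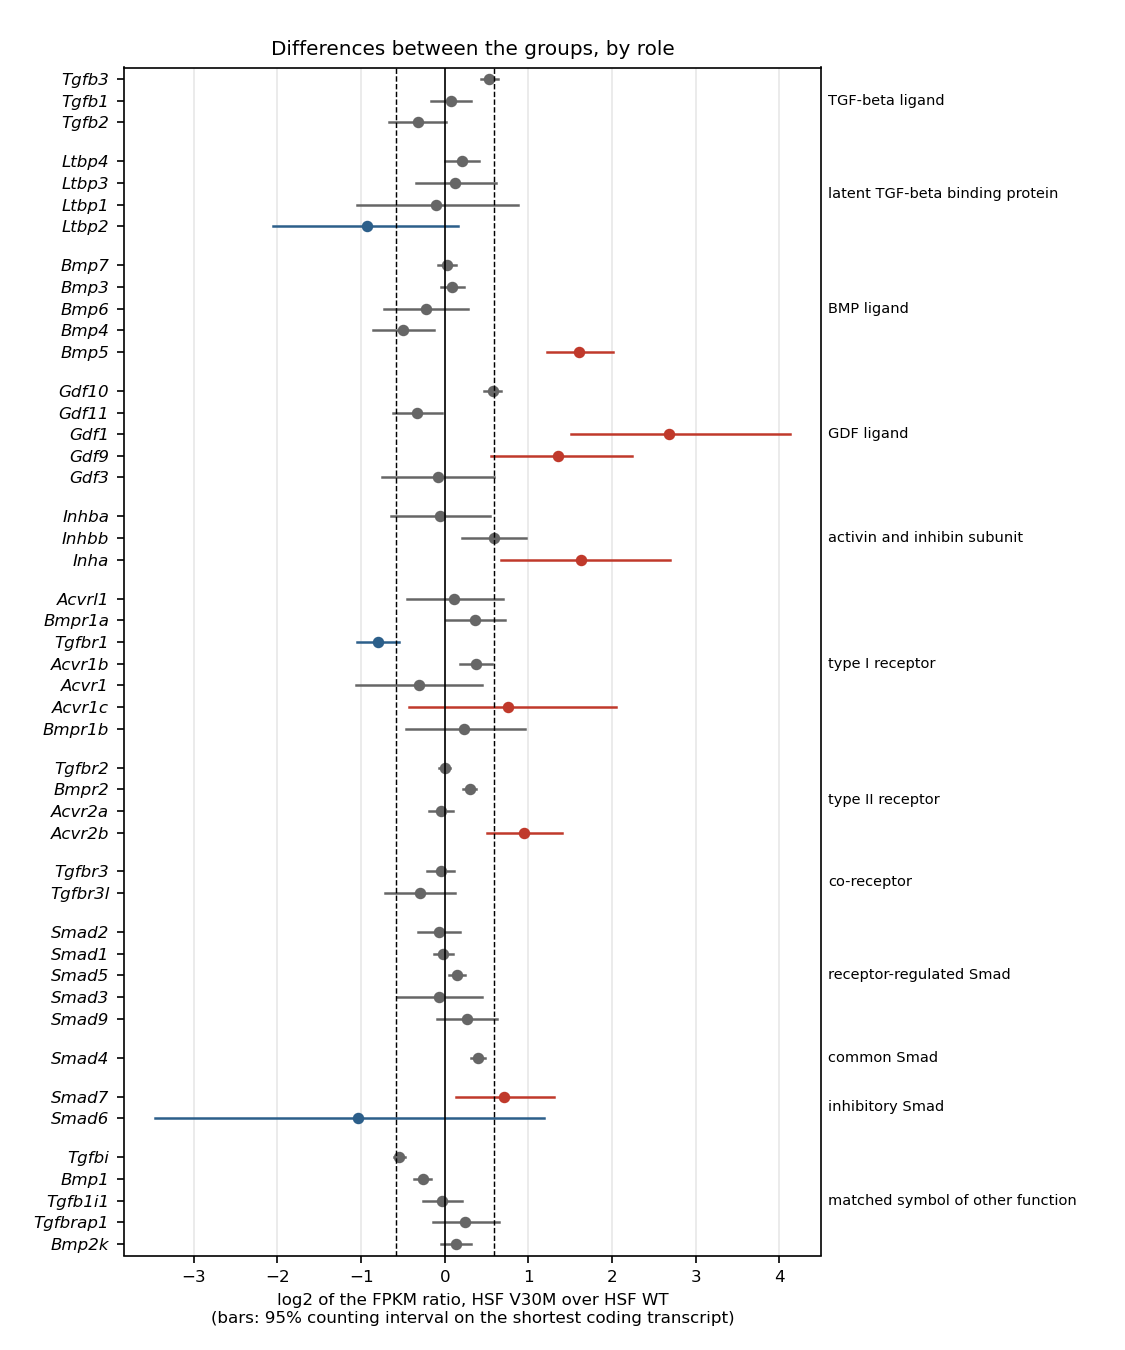
Ratio of HSF V30M to HSF WT in FPKM for the same 46 genes on a log2 axis, with 95% counting intervals as bars; dashed lines mark a 1.5-fold ratio in each direction, and red and blue mark genes past 1.5-fold on the FPKM + 1 scale, higher and lower. Smad6, Ltbp2 and Acvr1c are past the fold with bars that cross the line of no difference.

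Upstream sequence is shown for 4 of the genes past the fold whose interval lay off 1. These 4 are Bmp5, Inha and Acvr2b, which were higher, and Tgfbr1, which was lower. RefSeq gave a promoter for each, and none shared its reads with another gene throughout. Gdf1, Gdf9 and Smad7 were also past the fold with an interval off 1, and their upstream sequence is not shown. The 4 are thus a selection. The stretches are from RefSeq (GRCm38.p6, plus strand, 5′ to 3′) and end before the first base annotated as exon: chr9:75775115-75775363 for Bmp5, chr1:75507519-75507608 for Inha, chr9:119401928-119402117 for Acvr2b and chr4:47352972-47353221 for Tgfbr1. The Inha stretch lies before the RefSeq start but within an intron of the longer GENCODE gene model. Capitals mark CAGAC on either strand (GTCTG on the printed one), the core bound by Smad3 and Smad4, or GGCGCC, a GC-rich sequence bound by BMP-activated Smads.
Bmp5: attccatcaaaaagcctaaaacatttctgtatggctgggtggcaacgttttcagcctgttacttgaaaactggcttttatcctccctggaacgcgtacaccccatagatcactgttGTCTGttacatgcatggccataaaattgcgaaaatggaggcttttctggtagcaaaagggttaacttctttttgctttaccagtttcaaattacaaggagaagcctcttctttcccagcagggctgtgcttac
Inha: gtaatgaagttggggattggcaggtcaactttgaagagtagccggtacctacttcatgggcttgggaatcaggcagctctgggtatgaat
Acvr2b: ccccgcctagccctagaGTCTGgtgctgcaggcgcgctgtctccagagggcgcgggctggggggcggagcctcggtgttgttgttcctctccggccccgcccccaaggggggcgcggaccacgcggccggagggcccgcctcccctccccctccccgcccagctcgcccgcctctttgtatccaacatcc
Tgfbr1: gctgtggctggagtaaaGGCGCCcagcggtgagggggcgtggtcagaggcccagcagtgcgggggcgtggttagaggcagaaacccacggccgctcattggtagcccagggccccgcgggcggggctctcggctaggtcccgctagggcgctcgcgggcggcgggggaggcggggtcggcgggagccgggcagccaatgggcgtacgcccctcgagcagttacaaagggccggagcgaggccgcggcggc
The stretches of Bmp5 and Acvr2b each held 1 CAGAC, that of Tgfbr1 held 1 GGCGCC, and that of Inha held neither. In the full RefSeq windows of 300 bases, which reach past these stretches, CAGAC was found at all 4 genes. It was in 49.6% of all 32851 such RefSeq promoter windows and in 27 of the 55 windows that belong to the 58 genes (49.1%), so its presence sets none of them apart. GGCGCC was in 11.9% of all windows and in 14 of the 55 (25.5%), the windows of 12 genes: Acvr1b, Bmp2k, Bmpr1a, Bmpr2, Gdf1, Gdf10, Ltbp4, Smad5, Smad9, Tgfbi, Tgfbr1 and Tgfbrap1. GTCTAGAC, a palindrome bound by Smad3 and Smad4 that shares AGAC with CAGAC but does not contain it, was in 0.213% of all windows and in 1 of the 55, at Smad6. Of the 58 genes, 43 had a window in the table. A match is a run of letters and was not examined for binding.

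Among the TGF-beta ligands, Tgfb3 was the most abundant and was higher in the group labelled HSF V30M, and the other members differed less. Tgfb3 was 34.13 FPKM in HSF V30M and 23.6 in HSF WT, a ratio of 1.45 (95% counting interval 1.35 to 1.56). Its log2 difference of 0.52 was just inside the 1.5-fold line. Tgfb1 was 8.63 and 8.18 FPKM, a ratio of 1.05 (0.896 to 1.24). Tgfb2 was 2.14 and 2.68 FPKM, a ratio of 0.7996 (0.631 to 1.015). The intervals of Tgfb1 and Tgfb2 covered 1, so no difference was detectable for either when counted on the shortest coding transcript. Tgfb3 thus made up 76.0% of the summed FPKM of the TGF-beta ligands in HSF V30M and 68.4% in HSF WT.

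The latent TGF-beta binding proteins kept the same order of level in both groups: Ltbp4, Ltbp3, Ltbp1 and Ltbp2. Ltbp4 was 50.27 FPKM in HSF V30M and 43.4 in HSF WT, a ratio of 1.16 (1.007 to 1.33). Ltbp3 was 28.33 and 25.9 FPKM, and Ltbp1 was 21.59 and 23.2, with intervals that covered 1. Ltbp2, which binds fibrillin and does not hold latent TGF-beta, was 1.81 and 3.44 FPKM and was past the fold (log2 difference -0.66). Its ratio was 0.526, with an interval of 0.241 to 1.12 on its shortest coding transcript and of 0.446 to 0.619 on its longest, an alternative chosen after seeing the data. The fragments of Ltbp2 could thus not be counted closely enough to place the difference off 1 in the first case.

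Bmp5 stood out among the BMP ligands in size of difference, while the abundant members Bmp7 and Bmp3 were level. Bmp5 (ENSMUSG00000032179, chr9:75775364-75900310, plus strand) was 3.66 FPKM in HSF V30M and 1.203 in HSF WT. Its ratio was 3.04 (2.33 to 4.03), from an estimated 289 to 341 fragments against 67.3 to 90.7, and its log2 difference was 1.08. An antisense gene, Gm26903, covers 46.7% of the exon bases of Bmp5 and was 0.120 and 0.0840 FPKM. Strand use in counting is not stated, so the reads of the pair cannot be told apart. Bmp5 made up 6.09% of the summed BMP ligand FPKM in HSF V30M and 2.02% in HSF WT.

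Bmp7 was 21.67 FPKM in HSF V30M and 21.3 in HSF WT, a ratio of 1.02 (0.943 to 1.10). Bmp3, an atypical member that opposes other BMPs, was 20.21 and 19.0 FPKM, a ratio of 1.07 (0.970 to 1.17). Bmp7 held 36.1% and 35.8% of the BMP ligand sum, and Bmp3 held 33.6% and 31.9%. Bmp6, an inducer of hepcidin in liver, was 8.82 and 10.3 FPKM, a ratio of 0.853 (0.603 to 1.21). Bmp4, a ligand of vessel and limb development, was 4.14 and 5.84 FPKM. Its ratio was 0.709 (0.551 to 0.912), so its interval lay below 1 while the log2 difference of -0.41 was within the fold. The other BMP genes had means under 1 FPKM: Bmp2 was 0.91 and 0.878, Bmp15 was 0.28 and 0.478, Bmp8b was 0.25 and 0.308, and Bmp8a and Bmp10 were at or under 0.197 in both groups.

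The growth differentiation factors were led by Gdf10, and 2 low members, Gdf1 and Gdf9, were past the fold higher. Gdf10, a relative of Bmp3 that is also called BMP3B, was 23.43 FPKM in HSF V30M and 15.8 in HSF WT. Its ratio was 1.49 (1.39 to 1.59) and its log2 difference 0.54, just inside the line. It held 71.7% and 70.0% of the summed GDF FPKM. Gdf9 (ENSMUSG00000018238, chr11:53431023-53437904, plus strand), known as a factor secreted by oocytes, was 1.74 and 0.678 FPKM. Its ratio was 2.57 (1.47 to 4.71), from 60.4 to 71.3 fragments against 16.7 to 22.5.

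Gdf1 (ENSMUSG00000109523, chr8:70329817-70331587, plus strand), a ligand of left-right patterning in the embryo, was 2.33 FPKM in HSF V30M and 0.363 in HSF WT, the widest ratio at 6.42 (2.85 to 17.4). All of its exon bases (100%) lie within exons of Cers1, a ceramide synthase gene on the same strand, which was 2.13 and 3.42 FPKM and so lay in the opposite direction. The split of reads between the 2 genes is uncertain, and with it the value of Gdf1. Gdf11, a ligand of axial patterning close to myostatin, was 2.56 and 3.21 FPKM, a ratio of 0.798 (0.654 to 0.975). Gdf3 was 1.11 and 1.17 FPKM, with an interval that covered 1.

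Of the GDF genes under 1 FPKM, Gdf15, a stress-induced factor, was 0.49 FPKM in HSF V30M against 0.232 in HSF WT, and Gdf7 was 0.88 and 0.750. Gdf5, a joint-forming ligand, was 0.10 and 0.340 FPKM, a ratio of 0.294 with an interval of 0.0761 to 0.939, from at most 5.45 fragments against 15.0. An antisense partner, Gm15557, covers 40.3% of its exon bases. Gdf2 and Gdf6 were at or under 0.0194 FPKM in both groups, below the 3 fragments that were taken as the floor.

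Inha and Inhbb were higher among the activin and inhibin subunits, and Inhba was level. Activins are dimers of the beta subunits, and inhibins, which oppose them, pair a beta subunit with the alpha subunit that Inha encodes. Inha (ENSMUSG00000032968, chr1:75507077-75510366, plus strand) was 1.79 FPKM in HSF V30M and 0.580 in HSF WT, a ratio of 3.09 (1.60 to 6.48), from 49.8 to 58.7 fragments against 11.4 to 15.4. Inhbb was 2.03 and 1.35 FPKM, a ratio of 1.503 (1.15 to 1.97) but a log2 difference of 0.37, so it was past the fold only without the added 1 FPKM. Inhba was 2.06 and 2.14 FPKM, a ratio of 0.961 (0.640 to 1.45). Inhbc was listed at 0 in both groups, where 3 fragments would be 0.0829 and 0.117 FPKM, and Inhbe was 0.01 and 0.

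The type I receptors differed in both directions. Tgfbr1 (ENSMUSG00000007613, chr4:47353222-47414931, plus strand), the type I receptor of TGF-beta also called ALK5, was 7.31 FPKM in HSF V30M and 12.7 in HSF WT. Its ratio was 0.575 (0.483 to 0.683) and its log2 difference -0.72, from 241 to 1044 fragments against 297 to 1472, the span being that between its shortest and longest coding transcripts. It held 10.03% of the summed type I receptor FPKM in HSF V30M and 18.5% in HSF WT. No other receptor was past the fold lower. Acvr1c (ENSMUSG00000026834, chr2:58267453-58357895, minus strand), or ALK7, a receptor of nodal and activin B known from fat tissue, was 5.15 and 3.06 FPKM. Its ratio was 1.68 with an interval of 0.744 to 4.15 on the shortest coding transcript and 1.502 to 1.89 on the longest, and its log2 difference of 0.60 was just past the line. The 6 adipocyte markers, which were lower in sign in HSF V30M throughout, summed to 1250 and 1892 FPKM.

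The other type I receptors were within the fold. Acvrl1, the ALK1 receptor of vessel endothelium, was the highest at 27.81 FPKM in HSF V30M and 25.7 in HSF WT, a ratio of 1.08 (0.731 to 1.62). Bmpr1a was 20.13 and 15.6 FPKM, a ratio of 1.29 (1.011 to 1.65). Acvr1b, the activin receptor ALK4, was 7.37 and 5.69 FPKM, a ratio of 1.295 (1.14 to 1.47). The intervals of both Bmpr1a and Acvr1b lay above 1. Acvr1, or ALK2, was 3.84 and 4.76 FPKM, and Bmpr1b was 1.27 and 1.08, with intervals that covered 1.

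Of the type II receptors, Tgfbr2 was level, and Acvr2b was past the fold higher. Tgfbr2, the partner of Tgfbr1 that binds TGF-beta, was 64.29 FPKM in HSF V30M and 64.4 in HSF WT, a ratio of 0.999 (0.955 to 1.04). It was thus level within counting error. Acvr2b (ENSMUSG00000061393, chr9:119402118-119434995, plus strand), a receptor of activins, myostatin and several GDFs and BMPs, was 4.81 and 2.4996 FPKM. Its ratio was 1.92 (1.42 to 2.64) and its log2 difference 0.73, from 160 to 368 fragments against 59.1 to 155. Its paralogue Acvr2a was 7.82 and 8.04 FPKM, a ratio of 0.972 (0.880 to 1.07). Bmpr2, the type II receptor of BMPs, was 13.86 and 11.3 FPKM, a ratio of 1.23 (1.17 to 1.297).

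Among the 58 genes, the receptors that present ligand without signalling themselves are Tgfbr3 and Tgfbr3l. Both had intervals that covered 1 on their shortest coding transcripts. Tgfbr3, or betaglycan, which hands TGF-beta2 to Tgfbr2, was 72.15 FPKM in HSF V30M and 74.5 in HSF WT, a ratio of 0.968 (0.867 to 1.08). Tgfbr3l was 5.46 and 6.71 FPKM, a ratio of 0.814 (0.608 to 1.09). Of its exon bases 52.2% lie within a gene entry named Map2k7 on the same strand, so its value is uncertain.

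The receptor-regulated Smads of both branches were near level. Smad2 was 34.21 FPKM in HSF V30M and 35.98 in HSF WT, a ratio of 0.951 (0.799 to 1.13), and Smad3 was 15.83 and 16.6, a ratio of 0.952 (0.671 to 1.36). Of the BMP branch, Smad1 was 22.84 and 23.1 FPKM, a ratio of 0.989 (0.912 to 1.07). Smad5 was 22.62 and 20.4 FPKM, a ratio of 1.11 (1.03 to 1.19), and Smad9 was 1.59 and 1.33, with an interval that covered 1. The log2 differences of these 5 genes ran from -0.07 to 0.16. Smad4, the partner shared by both branches, was 81.21 and 61.6 FPKM, a ratio of 1.32 (1.25 to 1.39). It was the highest of all 58 genes in HSF V30M and was within the fold (log2 difference 0.39).

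The inhibitory Smads were past the fold in opposite directions. Smad7, which blocks both branches and is induced by TGF-beta, was 6.93 FPKM in HSF V30M and 4.25 in HSF WT, a ratio of 1.63 (1.10 to 2.46) and a log2 difference of 0.60. Smad6 (ENSMUSG00000036867, chr9:63953076-64022059, minus strand), which acts mainly on BMP signals, was 2.28 and 4.68 FPKM, a log2 difference of -0.79. Its ratio was 0.487, with an interval of 0.0909 to 2.27 on a short coding transcript that leaves as few as 3.63 and 5.28 fragments. On its longest coding transcript the interval was 0.389 to 0.609. Smad7 made up 75.2% of the sum of the pair in HSF V30M and 47.6% in HSF WT, while the sum itself was 9.21 and 8.92 FPKM.

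The genes that match by name alone were all within the fold. Tgfbi, a matrix protein induced by TGF-beta, was 60.47 FPKM in HSF V30M and 88.1 in HSF WT, a ratio of 0.687 (0.654 to 0.720) and a log2 difference of -0.54, just inside the line. Bmp1, a protease that trims procollagens, was 20.82 and 25.01 FPKM, a ratio of 0.832 (0.774 to 0.896). The intervals of both lay below 1. Tgfb1i1, a focal adhesion protein also called Hic-5, was 19.79 and 20.2 FPKM. Bmp2k, a kinase, was 9.63 and 8.78 FPKM, and Tgfbrap1, a protein of vesicle tethering, was 13.52 and 11.4, with intervals that covered 1.

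Of the 36 genes within the fold, the interval covered 1 for 23 and lay off 1 for 13. On the longest coding transcript it lay off 1 for 11 of those 23 as well, of which Tgfb2, Bmp6, Acvr1, Smad2, Ltbp1 and Tgfbr3 were lower in HSF V30M and Bmp3, Ltbp3, Acvrl1, Bmp2k and Tgfbrap1 were higher. In all, 20 of the 46 had an interval off 1, beside 34.4% of all genes with that mean. Counting error leaves out the spread between mice, which is not in these values, so an interval off 1 describes the libraries and not the genotype. Exons of 20 of the 58 genes overlap those of another gene.

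Other genes of the pathways were taken from lists of 60 genes, of which 42 had a mean of at least 1 FPKM. Of these, 2 were past 1.5-fold higher and 1 lower, beside 8.22% and 8.44% of all genes, and their median log2 difference was -0.03. The genes past the fold were the co-receptors Rgma and Eng, which were higher, and Lrrc32, which was lower. Rgma, a repulsive guidance molecule that binds BMPs, was 29.90 FPKM in HSF V30M and 12.9 in HSF WT, a log2 difference of 1.15. Eng, or endoglin, an endothelial co-receptor for Bmp9 (Gdf2) and Bmp10, was 37.20 and 24.0 FPKM, a log2 difference of 0.61. Both of these ligands were at or near 0 in the nerve. Lrrc32, also called GARP, which anchors latent TGF-beta at the cell surface, was 11.94 and 21.98 FPKM, a log2 difference of -0.83.

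None of the 14 measured extracellular antagonists was past the fold. Dcn, the proteoglycan decorin, which binds TGF-beta, was 1330.64 FPKM in HSF V30M and 1320 in HSF WT, and Nbl1, a BMP antagonist of the DAN family, was 349.84 and 233, a log2 difference of 0.58 just inside the line. Other BMP antagonists varied in level. Nog was under 1 FPKM in both groups (0.11 and 0.485) and Grem1 was listed at 0 in both. Sostdc1 was 46.3 and 53.3 FPKM, and Chrdl1 was 36.8 and 34.4. Among 9 genes of latency and activation only Lrrc32 was past the fold, and the 2 highest, Thbs1 and Itgav, were 96.62 and 98.4 FPKM and 93.47 and 84.0 FPKM. Of the 16 Smad partners and regulators none was past it. The highest of these were Fkbp1a, a binder of type I receptors, at 209.19 and 214 FPKM, and Ski, a repressor of Smads, at 36.60 and 32.3 FPKM. The 16 include Skil, Pmepa1 and Runx2, which are also on the target lists and were left out of the 42 above. The list of other superfamily ligands and receptors had 1 gene with a mean of at least 1, Amhr2, at 0.80 and 1.22 FPKM.

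Known target genes were counted with the 58 genes left out, and 25 of 30 had a mean of at least 1 FPKM. Of these, 4 were past 1.5-fold higher and 3 lower, beside 8.22% and 8.44% of all genes. With the counting interval also off 1 the counts were again 4 and 3, beside 5.14% and 5.17% of all genes. All 4 were on the BMP list, and 2 of the 3 were on the TGF-beta list. The lists were chosen with earlier results of these data known, and the difference between them was not tested. Of 16 TGF-beta targets, Tagln and Postn were lower and none was higher, with a median log2 difference of -0.13. Tagln, a protein of contractile cells, was 471.99 FPKM in HSF V30M and 1102 in HSF WT, a log2 difference of -1.22. Postn, the matrix protein periostin, was 35.16 and 78.5 FPKM, a log2 difference of -1.14. Other abundant targets were within the fold and lay on both sides: Col1a2 was 313.57 and 287 FPKM and Col1a1 181.20 and 152, while Col3a1 was 219.18 and 317 and Fn1 211.92 and 263.

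Of 9 BMP targets, 4 were past the fold higher and Id2 was past it lower, with a median log2 difference of 0.57. The BMP list also holds Smad6 and Smad7, left out here as members. They were past the fold lower and higher, with log2 differences of -0.79 and 0.60. Id1, an inhibitor of basic helix-loop-helix factors and a direct target of Smad1 and Smad5, was 21.38 FPKM in HSF V30M and 11.7 in HSF WT, a log2 difference of 0.82. Id2, of the same family, was 9.66 and 17.9 FPKM, a log2 difference of -0.83, so members of the Id family lay in opposite directions. Id3 was 79.80 and 54.4 FPKM and Id4 was 7.51 and 4.75, with log2 differences of 0.55 and 0.57 within the fold. The others past it were Hey1, a transcription factor also set by Notch, at 6.91 and 4.19 FPKM, and Tnfrsf11b, or osteoprotegerin, at 3.51 and 1.76 FPKM. Spp1, or osteopontin, a gene also expressed in macrophages and in Schwann cells after injury, was 496.19 and 125 FPKM, a log2 difference of 1.98.

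**Figure D3:**
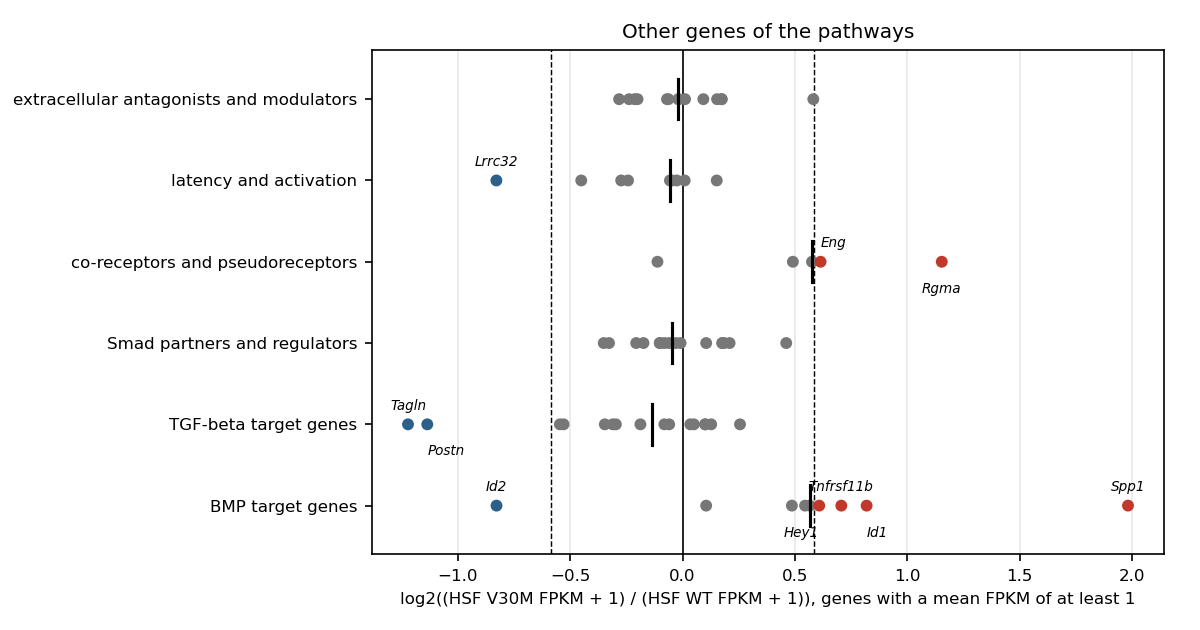
Log2 of (HSF V30M FPKM + 1) over (HSF WT FPKM + 1) for pathway and target genes that are not among the 58, with 1 point per gene and a black bar at the median of each list; dashed lines mark 1.5-fold, red points are past it higher and blue lower, with names. The BMP targets have a median of 0.57 and the TGF-beta targets of -0.13.

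Markers of other cells that a nerve sample can hold moved between the groups. Of all genes, 8.22% were past the fold higher and 8.44% lower. All 6 measured skeletal muscle markers were past the fold lower (these sum to 41.2 FPKM in HSF V30M and 157 in HSF WT), as were all 4 measured ones of B cells (2.21 and 20.4) and both measured ones of T cells (0.84 and 6.17). Of the adipocyte markers 3 of 6 were lower, and of the mast cell markers 3 of 5 (126 and 198 FPKM). All 6 neutrophil markers were past the fold higher (104 and 26.3 FPKM), and so were 5 of 6 erythrocyte markers (291 and 101). Macrophage markers summed to 150.03 and 199 FPKM with 1 of 6 lower. With the counting interval also off 1, 4 of the 6 neutrophil markers and 3 of the 4 B cell markers remained. The other counts of this paragraph did not change, and the shares of all genes were then 5.14% higher and 5.17% lower.

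Among the lists for the resident cells, counts past the fold differed, to be read beside the same shares of all genes. None of 6 fibroblast markers was past the fold (2206 and 2267 FPKM). Of the other lists, 1 of 6 further Schwann cell markers was higher (527 and 382 FPKM), as were 1 of 6 for endothelium (209 and 171) and 2 of 6 for smooth muscle and pericytes (293 and 261), with 1 of 6 lower in the last. Of the 2 higher smooth muscle and pericyte markers, 1 had an interval off 1. Of 2 measured platelet markers 1 was higher (57.1 and 57.4 FPKM over the whole list). No keratinocyte marker reached a mean of 1 FPKM, and Krt1 was at 0 in both groups. The part of any of these cells in the values of Bmp5, Tgfbr1, Acvr2b, Spp1 or the other genes above was not tested.

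**Figure D4:**
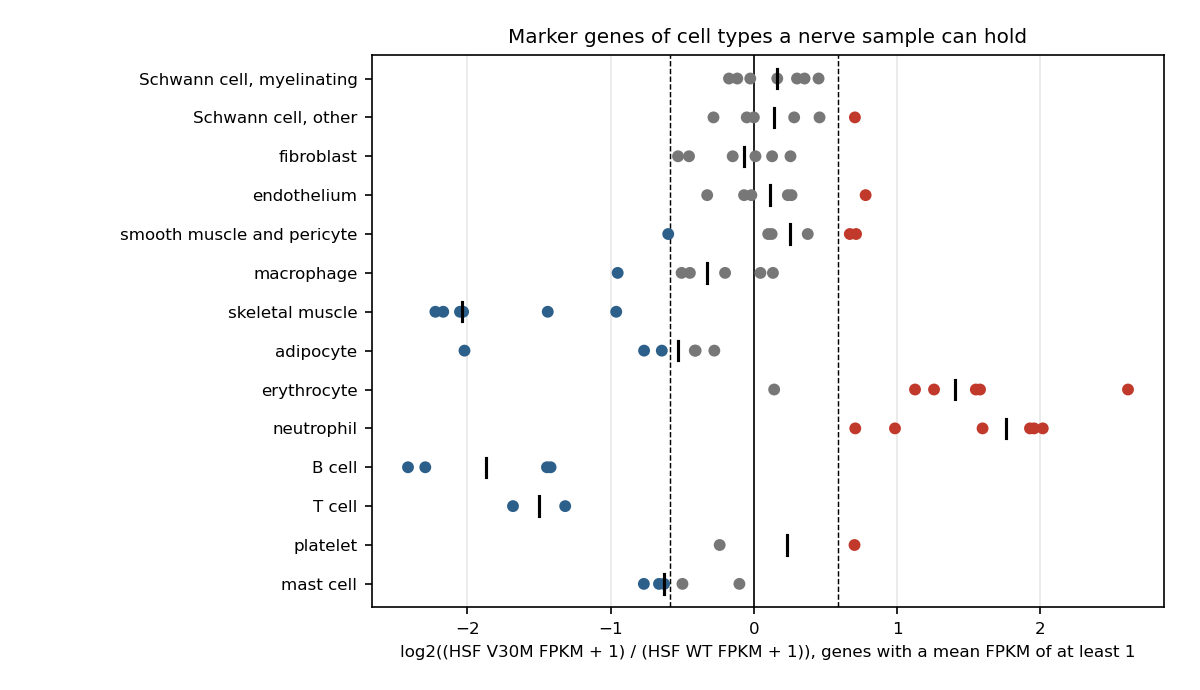
Log2 of (HSF V30M FPKM + 1) over (HSF WT FPKM + 1) for marker genes of 14 cell types, with 1 point per gene of mean FPKM at least 1, a black bar at each median and dashed lines at 1.5-fold. Neutrophil and most erythrocyte markers lie to the right and skeletal muscle, B cell and T cell markers to the left, while those of myelinating Schwann cells and fibroblasts lie between the dashed lines.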

How the data were processed

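RNA of the sciatic nerve was sequenced from Ion Torrent libraries, with 2 labelled samples each for HSF V30M and HSF WT. The authors deposited 1 comparison table, with 1 FPKM value per gene and group estimated by Cuffdiff after alignment to GRCm38, the C57BL/6J genome. STAR, Cufflinks and Cuffdiff are named without versions in the submitters' processing notes, and options are not given in the sources used here. The table also holds the authors' fold changes and p- and q-values, which were not used. Decimal commas were read as points, and 23 genes that Cuffdiff marked as having too many fragments for an estimate were left out.

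Differences were computed as log2 of the ratio of (FPKM + 1). Genes whose mean FPKM was 1 or more were counted, and a difference over 1.5-fold was called past the fold. The members and gene lists were chosen with earlier results of these data known. Values are given for each member with a mean of at least 1 FPKM and for members under it that reach 0.3 FPKM in a group. Of the pathway and target lists, the genes past the fold and the 2 highest of each are named. Id3, Id4, Nog, Grem1, Sostdc1, Chrdl1, Col1a1, Col3a1 and Fn1 were added after their values were seen.

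Depth was estimated on 17276 genes that have a single transcript and share no locus. FPKM times effective length (transcript length less 200 bases) piled up at 2 values in each group, the worth of 1 fragment in each library, with depths 1.18-fold apart in HSF V30M and 1.35-fold apart in HSF WT. Which library is which mouse is unknown. Intervals are exact conditional binomial intervals at 95%, computed with the shallower library and the shortest coding transcript; ranges of fragments run to the deeper library and the longest. The floor is 3 fragments. Gene models are GENCODE M21 and promoters RefSeq GRCm38.p6. The scripts ran under Python 3.11.15 (scipy 1.17.1, pandas 2.3.3, numpy 2.4.6; figures with matplotlib 3.10.9), and the steps were tested on simulated data. Alternatives were another pseudocount or none, median-of-ratios scaling, other minimum levels, a fold over 2, superfamily members only and, chosen after seeing the data, Gdf1 left out and the longest coding transcript.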

Additional observations from a re-analysis of the deposited data

How the results depend on the processing

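No paired analysis was possible because each group has a single pooled FPKM per gene, and leaving out a replicate could not be run for the same reason. Among the members, the counts of 7 higher and 3 lower were within 1.5 times under a pseudocount of 0.1 or none, median-of-ratios scaling (factors 1.0012 and 0.99876), no minimum level, superfamily members only and without Gdf1. With a mean of at least 5 FPKM, 1 was higher (Smad7) and 1 lower (Tgfbr1), so the other members past the fold rest on low values. With a fold over 2, 2 were higher (Gdf1 and Bmp5) and 0 lower. The median log2 difference ran from 0.01 to 0.09. Of the pathway genes, 4 were higher with a pseudocount of 0.1, 4 higher and 2 lower with none, and 1 higher and 0 lower with a fold over 2. Of the target genes, 1 was higher with a fold over 2. Bmp5 had a log2 difference of 1.53 with a pseudocount of 0.1 and 1.61 with none, and Gdf1 2.68 with none. Without values per mouse, the spread between mice limits every statement, and low members are further limited by counting error.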
